A study of Mus musculus with 4 samples.

Results

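The respiratory chain was read in the epidermis of mice that lack the calcium sensors STIM1 and STIM2 in epithelial cells, from its nuclear subunit genes and from pseudogenes that copy its mitochondrial genes. The nuclear genes are the protein-coding rows of the deposited table whose symbols start with Nduf, Cox4 to Cox8, Uqcr or Atp5, or are Sdha, Sdhb, Sdhc or Sdhd. There were 97 of them, with 48 in complex I, 4 in complex II, 8 in complex III, 19 in complex IV and 18 in complex V. The other 8 members are Gm29216, Gm28437, Gm10925, Gm28661, Gm13340, Gm28439, Gm13341 and Gm28438, which were picked with their counts in these libraries known. The members thus numbered 105 of the 56493 genes listed. The nuclear genes were picked by name, and 93 of them had a count in at least 1 library.

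The series compared 2 genotypes with 2 libraries each. The knockout (cKO) makes Cre recombinase from the keratin 14 promoter, which is active in the basal cells of stratified epithelia. It has lost Stim1 and Stim2 in the cells that make Cre and in cells descended from them. The control (F/F in the titles) carries floxed Stim1 and Stim2 alleles. Neither group is wild type. Cells of the epidermis that neither make keratin 14 nor descend from cells that do are outside the reach of this Cre. Dorsal skin was taken, its epidermis was split from the dermis with thiocyanate, and RNA was sequenced from the 3′ ends of transcripts. Age, strain, sex and the number of animals behind a library are not given in the sources used here, so p-values measure the spread between these libraries, which may be technical.

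Mitochondria make ATP by passing electrons from NADH (complex I) and succinate (complex II) through complex III to oxygen at complex IV, and by using the resulting proton gradient to turn the ATP synthase, complex V. Complexes I, III, IV and V each combine subunits made from nuclear genes with a few made from mitochondrial DNA, whereas all subunits of complex II are nuclear. Copies of mitochondrial DNA have also been inserted into the nuclear chromosomes over evolution, and many are annotated there as pseudogenes. In the epidermis, keratinocytes lose their mitochondria with their other organelles as they cornify.

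Total counts were 282190 in cKO 1, 118858 in cKO 2, 200293 in control 1 and 322426 in control 2, a 2.71-fold range. Of the targeted genes, Stim1 was counted 23 and 6 times in the cKO libraries and 24 and 62 times in the controls, and Stim2 had 0 and 1 against 3 and 18. Levels are given as CPM (each library's counts over the 4243 genes tested, scaled by TMM), and a gene at 0 could hide up to 3 counts, which stood for 12.1, 33.7, 16.01 and 9.58 CPM in the same order of libraries. Stim1 was at 93.0 and 67.4 CPM in cKO and 128 and 198 in control. Its log2 fold change was -0.98 ± 0.52 (SE) with an adjusted p of 0.671 in edgeR, so it was not called. Keratinocyte markers (8 genes, among them the loricrin gene Lor) summed to 19360, 10733, 8794 and 16903 CPM in that order. Skeletal muscle markers (14 genes) summed to 97.04, 371, 1649 and 1143 CPM, with 7 of the 14 at 0 in both cKO libraries. Intervals below cover counting error only, and limits for genes at 0 cover only that of the libraries at 0.

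The deposited table listed 0 genes on the mitochondrial chromosome, so mitochondrial RNA could be seen only through the pseudogenes, and their sequences show how close the copies are. The 2 pairs below end at the 3′ ends of the cytochrome c oxidase genes mt-Co1 and mt-Co2, where a 3′ library draws its reads. Each run has 120 bases from GRCm38 transcripts, and capitals mark bases that differ from the mitochondrial gene.
mt-Co1 (chrM:6753-6872, plus strand): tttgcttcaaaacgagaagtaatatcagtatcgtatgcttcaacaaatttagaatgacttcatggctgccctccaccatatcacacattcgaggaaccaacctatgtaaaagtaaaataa
Gm29216: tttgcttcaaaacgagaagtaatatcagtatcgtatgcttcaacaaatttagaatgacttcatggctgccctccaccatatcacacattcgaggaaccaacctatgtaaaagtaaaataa
Gm13340: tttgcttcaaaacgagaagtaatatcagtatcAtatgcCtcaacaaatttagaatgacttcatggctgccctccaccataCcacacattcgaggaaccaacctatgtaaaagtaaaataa
mt-Co2 (chrM:7577-7696, plus strand): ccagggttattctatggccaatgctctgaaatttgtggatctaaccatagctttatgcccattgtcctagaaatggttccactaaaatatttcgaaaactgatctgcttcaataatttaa
Gm13341: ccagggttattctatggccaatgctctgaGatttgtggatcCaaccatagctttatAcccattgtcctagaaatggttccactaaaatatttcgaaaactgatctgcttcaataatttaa

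Over this window Gm29216 had 0 differences from mt-Co1, so reads of the copy and of the gene could not be told apart there, while Gm13340 and Gm13341 each had 3 differences from their mitochondrial genes. Over its whole alignment of 483 bases, which are the 3′ part of mt-Co1, Gm29216 had 1 mismatch (A1066T, with the mitochondrial base first and positions counted from the start of mt-Co1). Gm28437 was identical to mt-Co3 over 783 bases, Gm10925 to mt-Atp6 over 678 bases, Gm28661 to mt-Co2 over 681 bases and Gm28439 to the first 876 of the 1378 bases of mt-Nd4. Gm28438 differed from mt-Nd3 at 1 of 345 bases (T3C). The 2 less similar copies were Gm13340, with 97.6% identity to mt-Co1 and 37 mismatches over 1545 bases, and Gm13341, with 95.9% identity to mt-Co2 over 684 aligned bases, in which 16 mismatches and 1 gap (its own length is 672 bases) both count. The 6 closest copies lie side by side on the minus strand of chromosome 1 between positions 24650616 and 24655278, and the other 2 on chromosome 2. These positions are those of the deposited table, for which the submitters' processing notes name GRCm39.

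The mitochondrial-like pseudogenes took a higher share of counts in both cKO libraries than in either control, but the nearest libraries were almost level. They took 14.1% of the counts of cKO 1 (95% Wilson interval 13.9% to 14.2%), 23.9% of cKO 2 (23.6% to 24.1%), 13.9% of control 1 (13.7% to 14.03%) and 8.22% of control 2 (8.13% to 8.32%). The mean was 18.97% ± 6.95 (SD, n = 2) in cKO against 11.05% ± 4.001 in control, a ratio of 1.72. The groups did not overlap, yet the intervals of cKO 1 and control 1 did. Left-out libraries moved the ratio between 1.27 (without cKO 2) and 2.31 (without control 1). Since the pseudogenes were chosen with these shares known, they are given as a description with no test.

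The shares of the nuclear respiratory chain genes overlapped between the genotypes. Their share of all counts was 2.22% in cKO 1, 2.93% in cKO 2, 2.97% in control 1 and 2.15% in control 2, so cKO 2 and control 1 were high and the other library of each genotype was low. The means were 2.58% ± 0.498 (SD, n = 2) in cKO and 2.56% ± 0.584 in control, a ratio of 1.01 (exact two-sided permutation p = 1.0; the smallest p that 2 libraries per group allow is 0.333). The 2 libraries with the lower nuclear share were also the 2 with the larger totals and the higher sums of keratinocyte markers. Not every gene of that list followed its sum. Lor did, with 1128, 170, 142 and 1400 counts in the same order. Krt14 did not, with 1077, 267, 174 and 271, so that control 2 was lowest for it once scaled by depth. The part of totals and of keratinocyte markers in the share was not tested. Because the pseudogenes fill a different part of each library, the nuclear share was also taken of the other counts alone. It was then 2.59%, 3.85%, 3.45% and 2.34% in the same order, with a ratio of 1.11 (exact permutation p = 0.667). Set against the genes of the cytosolic ribosome, the nuclear members had 28.1, 45.01, 34.8 and 29.8 counts per 100 ribosomal protein counts (exact permutation p = 1.0).

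Within each library, the ratio of pseudogene to nuclear counts removes the library total. It was 6.32 in cKO 1, 8.15 in cKO 2, 4.67 in control 1 and 3.82 in control 2, so both cKO libraries were above both controls. The means were 7.23 ± 1.30 and 4.24 ± 0.595 (SD, n = 2), a ratio of 1.70 that stayed between 1.49 and 1.92 when each library was left out. One of its terms was chosen on these libraries, so no test is given.

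**Figure D1:**
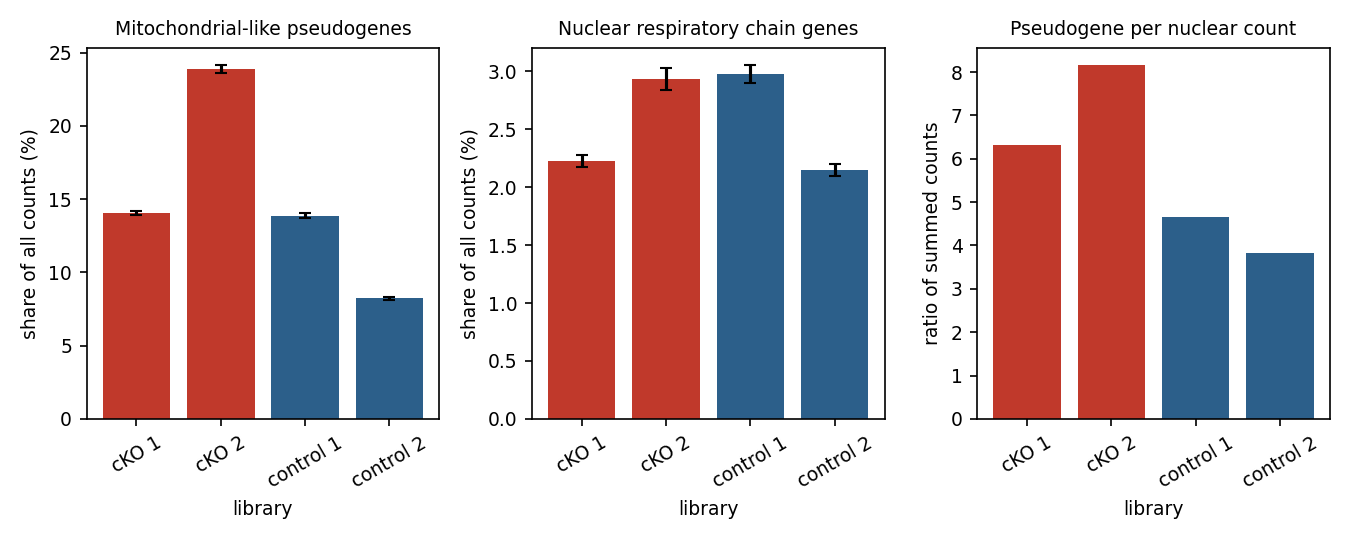
Share of all counts (%) taken by the 8 mitochondrial-like pseudogenes (left) and the 97 nuclear respiratory chain genes (middle), with 95% Wilson intervals, and the pseudogene counts per nuclear count (right), for each library (red cKO, blue control). Pseudogene shares were 14.1% and 23.9% in cKO and 13.9% and 8.22% in control, while the nuclear shares of the groups overlapped and the ratio at right was above 6 in cKO and below 5 in control.

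Among the 8 pseudogenes, 4 copies of genes for subunits of complexes IV and V held most of the counts. Gm29216, the copy of mt-Co1, whose product is the catalytic core subunit of cytochrome c oxidase, was counted 16004 and 11706 times in cKO, and 11578 and 11528 times in control. Gm28437, a copy of mt-Co3, which also codes for a core subunit, had 7345 and 6129 against 6252 and 5760. Gm28661, a copy of mt-Co2, whose product receives electrons from cytochrome c, had 5045 and 3854 against 3517 and 3350. Together with Gm10925 they took between 90.5% and 92.2% of the counts of the 8 in every library.

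Gm10925, the copy of mt-Atp6, whose product lies in the proton channel of the ATP synthase, took a larger part of the 8 in both cKO libraries than in either control. Its counts were 7588 and 4499 in cKO, and 3863 and 3353 in control. As a share of the 8 pseudogenes it took 19.1% and 15.8% in cKO and 13.9% and 12.7% in control. Gm29216 held 40.4% and 41.2% in cKO and 41.7% and 43.5% in control, and Gm28437 held 18.5% and 21.6% against 22.5% and 21.7%. In all, 6 of the 8 had parts that did not overlap between the groups, as Gm28661 (12.7% and 13.6% against 12.65% and 12.64%) and Gm13341 were also higher in cKO, and Gm13340 lower, by small margins. The parts within a library add up to a fixed total, so a larger part for some copies lowers the parts of others. The pseudogenes were also picked with their counts known, and no background share was taken, so nothing is read from the count of 6. The smaller copies were Gm13340 with 975 to 1545 counts, Gm28439 (mt-Nd4, a proton-pumping subunit of complex I) with 458 to 1035, Gm13341 with 533 to 872 and Gm28438 (mt-Nd3, also complex I) with 124 to 220.

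In the fit of edgeR's quasi-likelihood test across all genes the 8 pseudogenes had log2 fold changes (cKO against control) from 0.63 to 1.38, with a median of 1.05 and standard errors from 0.45 to 0.54. The largest was that of Gm10925 (1.38 ± 0.51 SE), followed by Gm13341 (1.15 ± 0.49) and Gm28438 (1.15 ± 0.46), and the smallest was that of Gm28439 (0.63 ± 0.45). CPM of the 2 groups did not overlap for 7 of the 8, the exception being Gm28437, the mt-Co3 copy (29699 and 68881 in cKO, 33362 and 18394 in control). Over all tested genes 18.9% were apart and higher in cKO and 19.6% apart and lower, but the pseudogenes were picked with their counts known, so nothing is read from this count. Scaled to library totals instead of TMM factors, the changes were smaller but positive for all 8, from 0.40 for Gm28439 to 1.12 for Gm10925. As shares of all counts, the groups also overlapped for Gm29216 (5.67% and 9.85% in cKO, 5.78% and 3.58% in control). The same held for Gm13340 (0.548% and 0.820% against 0.576% and 0.368%) and again for Gm28437. Without cKO 2 they ranged from 0.20 for Gm28437 to 0.97 for Gm10925.

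**Figure D2:**
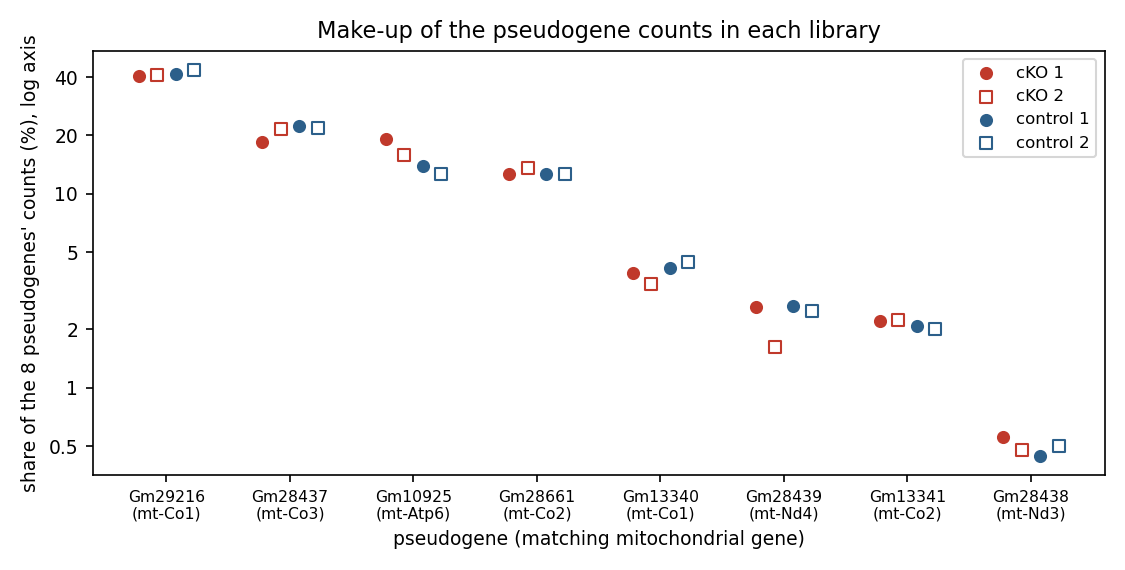
Share of the counts of the 8 pseudogenes (%, log axis) taken by each pseudogene, with the mitochondrial gene it copies, in each of the 4 libraries (red cKO, blue control; filled circles replicate 1, open squares replicate 2). Gm29216 held 40.4% to 43.5% in every library, and Gm10925 held 19.1% and 15.8% in cKO against 13.9% and 12.7% in control.

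No nuclear respiratory chain gene differed between the genotypes at an adjusted p of 0.05. Of the 97, 78 passed the count filter and 0 were called, against 0.848% of the 4243 genes tested (36 genes). None of the 78 reached an unadjusted p of 0.05 in edgeR, where 8.39% of all tested genes did, and their smallest adjusted p was 0.597. DESeq2 also called 0 of them, and limma-voom called 0, with 5 at an unadjusted p under 0.05.

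Taken as a group, the fitted log2 fold changes of the 78 were small and mostly above 0. Their median was 0.23, against 0.01 over all genes tested, and 61 were positive and 17 negative, or 78.2% positive against 50.4% of all tested genes. Scaled to library totals, the median was -0.01 with 37 of 78 positive, beside -0.21 for all genes, so the distance between the members and all genes was 0.20 by totals and 0.23 by TMM. CPM of the groups did not overlap for 18 members that were higher in cKO, where 18.9% of all tested genes were so placed, and for 2 that were lower, where 19.6% were. The distance from all genes rested on single libraries. It was 0.67 without cKO 1 and 0.52 without control 1, but -0.03 without cKO 2 and -0.01 without control 2.

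**Figure D3:**
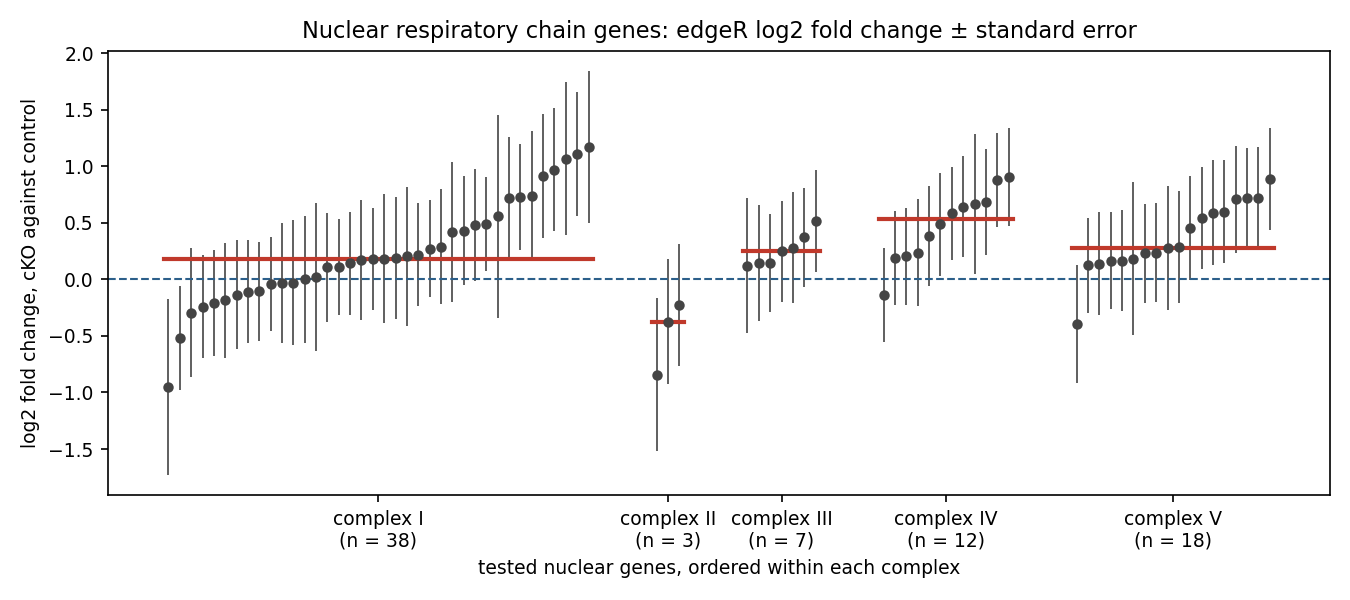
edgeR log2 fold change (cKO against control) ± standard error of each tested nuclear gene (points), ordered within its complex, with the median of each complex (red line) and that of all 4243 genes tested (dashed line, 0.01). Complex IV has the highest median at 0.53 and complex II the lowest at -0.37, and none of the 78 genes was called.

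The levels by library show which samples carried that shift. Of the 78 genes, 58 had their highest CPM in cKO 2, 12 in control 1, 6 in cKO 1 and 2 in control 2. The lowest CPM was in control 2 for 46, in cKO 1 for 20, in control 1 for 7 and in cKO 2 for 5. The median deviation from the gene's own mean, on the log2(CPM + 10) scale, was -0.16 in cKO 1, 0.43 in cKO 2, 0.11 in control 1 and -0.38 in control 2. The shallowest library was thus high and the deepest low, and libraries of the same genotype stood on opposite sides. Markers of some other cells were also highest in cKO 2. In the order cKO 1, cKO 2, control 1 and control 2, those of fibroblasts (6 genes) summed to 36.4, 607, 160 and 102 CPM. Those of sebocytes (4) summed to 558, 1259, 544 and 521, and of adipocytes (4) to 12.1, 180, 58.7 and 6.39. Melanocyte markers (4) summed to 137, 427, 326 and 86.2, with nearly all counts from Dct (33, 36, 61 and 26 counts). A list named for brown adipocytes (3) summed to 125, 562, 117 and 79.8. Its Ucp1 was at 0 in every library, so all its counts came from Cidea and Elovl3. Lists that were not highest in cKO 2 included Langerhans cells and macrophages (6), at 930, 2742, 3191 and 1804. T cell markers (5) summed to 68.7, 169, 277 and 217, and those of erythrocytes (4) to 1019, 78.7, 390 and 220. The part of depth and of other cells in the order was not tested.

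**Figure D4:**
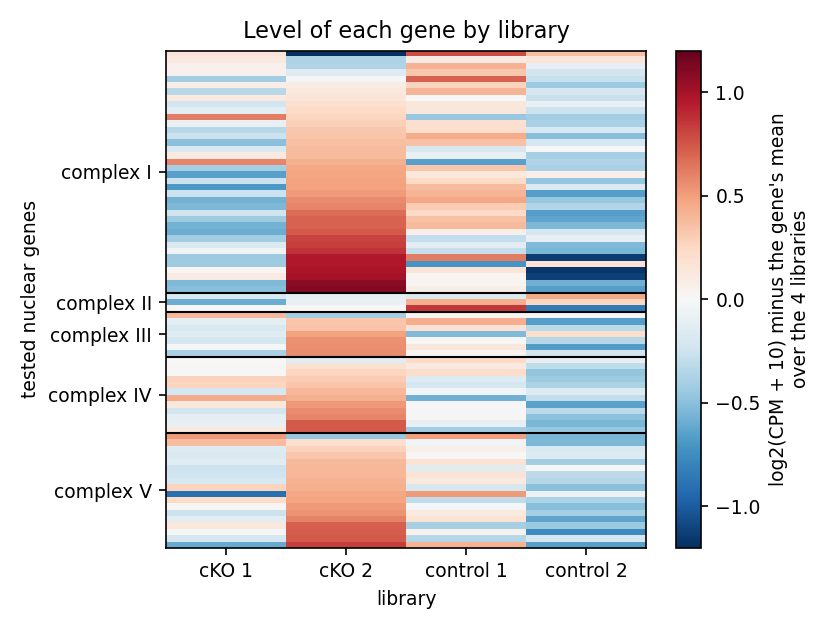
Deviation of log2(CPM + 10) in each library from the gene's mean over the 4 libraries, for the 78 tested nuclear genes (rows), grouped by complex and sorted by cKO 2. cKO 2 is above the mean for most rows (median 0.43) and control 2 below it (median -0.38), while cKO 1 and control 1 lie nearer to 0 (medians -0.16 and 0.11).

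Complex I, the NADH dehydrogenase, had 38 tested genes, whose median log2 fold change was 0.18 (-0.05 by library totals), 26 of them positive and 12 negative. That median turned negative without cKO 2 (-0.23) and without control 2 (-0.13), and was 0.51 without cKO 1. It took 0.964% and 1.39% of counts in cKO and 1.5% and 1.01% in control, so its groups overlapped. Its member with the highest level, Ndufc1, which codes for a small membrane-arm subunit, had 1379 and 2506 CPM in cKO and 2497 and 1680 in control, and its log2 fold change was -0.11 ± 0.46 (SE). Ndufa13, also called Grim19 and required to assemble the complex, had 1067 and 1787 CPM against 1515 and 926, with a log2 fold change of 0.22 ± 0.45. Both differences were smaller than their standard errors. Ndufa7, another accessory subunit, had 772 and 1023 CPM against 1702 and 859, and its value of -0.52 ± 0.46 became 0.06 without control 1.

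Several of the larger log2 fold changes among the tested members belonged to complex I by name. Ndufa10 had 89.0 and 67.4 CPM in cKO against 37.4 and 38.3 in control (1.07 ± 0.68, adjusted p = 0.765), and Ndufs8, which carries iron-sulfur clusters of the core, had 109 and 214 against 90.7 and 73.5 (0.91 ± 0.55). Ndufc2, the partner of Ndufc1, had 239 and 472 CPM against 261 and 99.0, and its groups overlapped (0.97 ± 0.54, or from 0.42 without control 2 to 1.80 without control 1). At 6 to 59 counts a library these genes rest on few counts.

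Ndufa4l2, an isoform of Ndufa4 best known as a hypoxia-inducible gene, had 170 and 326 CPM in cKO against 160 and 67.1 in control. Its log2 fold change was 1.11 ± 0.55 (adjusted p = 0.638), or from 0.59 without control 2 to 1.83 without control 1, and cKO 1 and control 1 were nearly level. Its exons overlap those of Shmt2 on the other strand, and the strand setting of the counting is not given in the sources used here. Ndufa4 itself, whose product is now counted with complex IV, had 14 and 4 counts against 4 and 5 and was not tested. Of the 7 core subunit genes, 6 were tested, with a median log2 fold change of 0.10.

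Assembly factors of complex I, which help build the enzyme but are not part of it, were mostly too scarce to compare. Of the 8 Ndufaf genes listed, 2 were tested, Ndufaf2 and Ndufaf8 (chosen after its values were seen). Ndufaf8 had 170 and 382 CPM in cKO against 299 and 284 in control (-0.14 ± 0.48). Ndufaf2 was counted 12 and 1 times in cKO and 15 and 18 times in control, with a log2 fold change of -0.95 ± 0.78 (adjusted p = 0.871) that was the lowest of all tested members and rested on cKO 2, without which it was -0.47. It shares exon sequence with an opposite-strand gene, B230220B15Rik. The others that were not tested had at most 10 counts in any library.

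Complex II, succinate dehydrogenase, was the one complex with a negative median log2 fold change under every scaling, though on few counts. It took 0.0365% and 0.0362% of counts in cKO (103 and 43 counts) and 0.0659% and 0.0381% in control (132 and 123 counts). The groups did not overlap (ratio 0.698; exact permutation p = 0.333, the smallest possible), but with the pseudogenes left out of the total they did (ratio 0.762). The median over its 3 tested genes was -0.37, and -0.59 by library totals.

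Its 3 tested genes all had negative log2 fold changes, with standard errors too wide to tell them apart. Sdha, the flavoprotein that oxidises succinate, had 84.9 and 89.9 CPM in cKO and 85.4 and 137 in control (-0.37 ± 0.55). Sdhb, the iron-sulfur subunit, had 283 and 281 against 518 and 153, so its log2 fold change of -0.23 ± 0.54 became 0.88 without control 1. Sdhc, a membrane anchor, had 36.4 and 56.2 CPM in cKO against 85.4 and 73.5 in control. Its groups did not overlap (-0.84 ± 0.68, adjusted p = 0.865), on 5 to 23 counts. Sdhd, the other anchor, had 3, 5, 3 and 9 counts and was not tested.

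Complex III, the cytochrome bc1 complex, took 0.262% and 0.354% of counts in cKO and 0.331% and 0.256% in control. All 7 tested genes had positive log2 fold changes, with a median of 0.25 that was -0.01 by library totals and -0.04 without cKO 2. The groups were apart for 0 of the 7, where 18.9% of all tested genes were apart and higher in cKO and 19.6% apart and lower. Its 3 members with the highest CPM code for small subunits at the edge of the complex. Uqcr10 had 736 and 1101 CPM in cKO against 816 and 463 in control, with a log2 fold change of 0.52 ± 0.45. Uqcrq had 667 and 1135 against 774 and 607 (0.37 ± 0.44), and Uqcr11 had 683 and 1337 against 918 and 770 (0.25 ± 0.45), which became -0.30 without cKO 2. In all 3 genes cKO 2 was highest and cKO 1 was below control 1.

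Complex IV, cytochrome c oxidase, had the highest median log2 fold change of the 5 complexes, 0.53 (0.30 by library totals). Of its 12 tested genes 11 were positive, where 50.4% of all tested genes were, and for 6 of the 12 both cKO libraries were above both controls, where this held for 18.9% of all tested genes. Those 6 include Cox5b and Cox5b-ps, a copy with 99.4% identity to Cox5b over 155 bases. The split of reads between these rows is uncertain, so they may not count as separate genes. The distance of this median from that of all genes was positive with each library left out, from 0.17 (without cKO 2) to 0.83 (without cKO 1). Its share of counts was 0.506% and 0.545% in cKO and 0.513% and 0.424% in control, so the groups overlapped (ratio 1.12, exact permutation p = 0.667).

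Cox6c, a small regulatory subunit, had 1152 and 1169 CPM in cKO against 848 and 703 in control. The cKO libraries were close together and above both controls, with a log2 fold change of 0.58 ± 0.41 and an adjusted p of 0.810. Its exons overlap Vps13b on the other strand. Cox4i1, a subunit through which ATP regulates the enzyme, had 950 and 1068 CPM against 1014 and 757 (0.19 ± 0.42), and Cox8a had 586 and 899 against 667 and 613 (0.20 ± 0.43), so both had overlapping groups. The smallest p of any nuclear member was that of Cox6b1, which links the monomers of the dimer, and it was looked at after its values were seen. It had 659 and 652 CPM in cKO against 320 and 390 in control (0.88 ± 0.41, adjusted p = 0.597). Cox5a, also singled out after the fact, had 400 and 618 against 272 and 265 (0.90 ± 0.43, adjusted p = 0.621).

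Complex V, the ATP synthase, had all 18 of its genes tested. The median log2 fold change was 0.28 (0.03 by library totals), 17 were positive and 1 negative, and for 6 of the 18 both cKO libraries were above both controls, beside 18.9% of all tested genes. The median was 0.02 without cKO 2 and 0.67 without control 1. Its share of counts was 0.456% and 0.604% in cKO and 0.565% and 0.419% in control. The 5 genes of the catalytic F1 head had a median of 0.54 and the 3 genes that code for the rotating c-ring had one of 0.18. The negative gene was Atp5e, the epsilon subunit, with 138 and 371 CPM in cKO against 384 and 252 in control (-0.39 ± 0.52), which became 0.19 without cKO 1.

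The Atp5o row with the highest level, which codes for the stalk subunit OSCP, had 619 and 1023 CPM in cKO against 758 and 431 in control (0.46 ± 0.46). A different Atp5o row overlaps it on the same strand, so the split of reads between the rows is uncertain. Atp5k, a membrane subunit that holds dimers together, had 566 and 820 CPM against 704 and 466 (0.24 ± 0.44), and Atp5j2 had 445 and 686 against 555 and 399 (0.23 ± 0.44). All 3 followed the pattern of the group, with cKO 2 highest and control 2 lowest.

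The muscle isoforms of complex IV were counted in the controls and were at 0 in both cKO libraries. In this complex 3 subunits have a form used in heart and skeletal muscle (Cox6a2, Cox7a1 and Cox8b) beside a form used widely (Cox6a1, Cox7a2 and Cox8a). Cox6a2 was at 0 in both cKO libraries and at 14 and 9 counts in the controls. Its mean control CPM was 2.26 times that of a floor of 3 counts per cKO library. This bound leaves out the counting error of the controls. Cox8b had 0 and 0 against 13 and 1, and its bound of the same kind, 1.58-fold, was lost without control 1. Cox7a1 had 0 and 0 against 7 and 1, too few for a bound. The 3 genes were below the count filter and had no test in the fit across 4243 genes.

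The muscle isoforms summed to 34 and 11 counts in the controls and to 0 in either cKO library, while the widely used forms had 292, 158, 236 and 315 counts. The bound for Cox6a2 lay between 1.25 and 4.26 with each library left out. With no count filter the adjusted p in edgeR was 0.0744 for Cox6a2, 0.388 for Cox8b and 0.911 for Cox7a1. Under a filter on the mean (10 CPM) the adjusted p in edgeR was 0.129 for Cox6a2 and 0.470 for Cox8b. The exons of Cox6a2 overlap Itgad on the other strand. As a sum, skeletal muscle markers were also lower in cKO, at 24 and 33 counts against 309 and 358 in the controls. Not all of them were. On the CPM scale cKO 2 was above control 1 for Tpm2 (13 and 18 counts in cKO against 26 and 24), Mb (0 and 3 against 0 and 2) and Myh1 (0 and 4 against 7 and 18). The 5 markers of slow and cardiac muscle were at 0 in every library. The part of muscle RNA in this difference was not tested, and fewer cells of a type cannot be told apart from less RNA per cell. The isoforms of other tissues, Cox4i2, Cox6b2, Cox7b2 and Cox8c, had 0 counts in all 4 libraries.

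**Figure D5:**
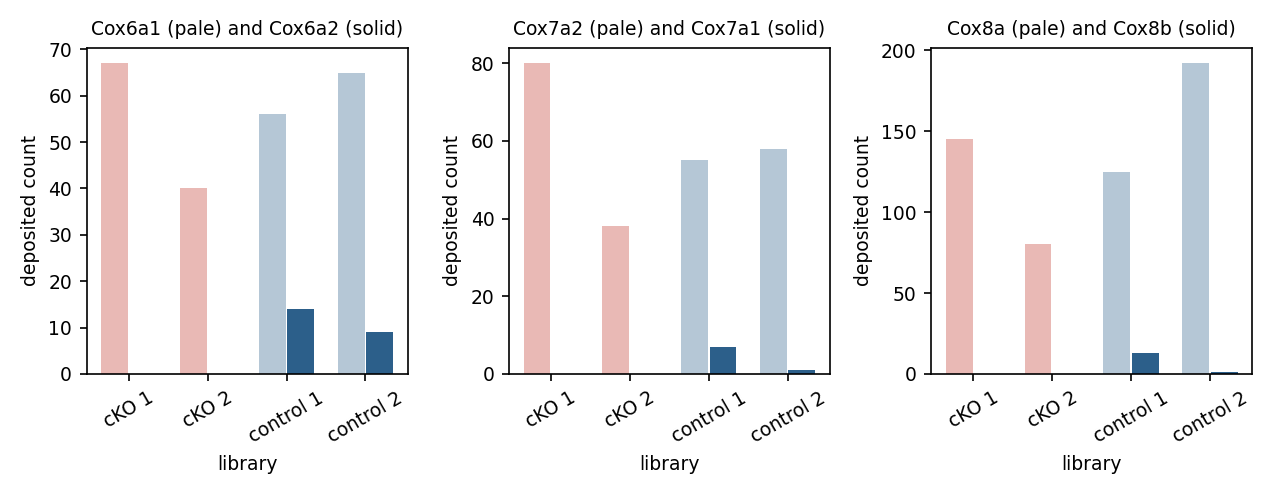
Deposited counts of the widely used (pale bars) and muscle (solid bars) forms of 3 complex IV subunits in each library (red cKO, blue control). Cox6a2, Cox7a1 and Cox8b are at 0 in both cKO libraries and at 14 and 9, 7 and 1, and 13 and 1 counts in the controls, while the widely used forms were counted in every library.

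The promoters of 1 such pair, Cox8a and Cox8b, are shown because they hold different motifs, in RefSeq windows (GRCm38.p6, 250 bases before to 50 after the start, minus strand for both). In the other pair with both windows, Cox7a2 and Cox7a1, neither held any of the motifs searched. Capitals mark CTTCCGG, the reverse complement of the ETS motif CCGGAAG bound by GABP, in Cox8a, and CAGCTG, an E-box of the kind bound by myogenic factors, in Cox8b.
Cox8a (chr19:7217567-7217866): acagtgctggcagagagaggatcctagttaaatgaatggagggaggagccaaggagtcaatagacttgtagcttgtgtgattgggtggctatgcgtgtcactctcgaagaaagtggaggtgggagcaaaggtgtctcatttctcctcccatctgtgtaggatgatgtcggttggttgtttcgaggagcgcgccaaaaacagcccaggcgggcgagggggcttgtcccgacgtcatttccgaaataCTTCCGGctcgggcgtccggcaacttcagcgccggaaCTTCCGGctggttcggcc
Cox8b (chr7:140900397-140900696): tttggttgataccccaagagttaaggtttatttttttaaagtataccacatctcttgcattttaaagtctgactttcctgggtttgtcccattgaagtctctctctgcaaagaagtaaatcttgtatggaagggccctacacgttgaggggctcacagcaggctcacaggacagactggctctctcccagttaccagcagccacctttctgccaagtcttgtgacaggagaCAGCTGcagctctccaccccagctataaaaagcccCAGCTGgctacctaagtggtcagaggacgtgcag

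The Cox8a window held the ETS motif at 2 places and the Cox8b window held CAGCTG at 2 places. Of the 97 nuclear genes, 77 had a promoter entry, and both strands were searched. CCGGAAG was found in 19 (24.7%), against 9.93% of 27025 promoters of the same length. The core motif of NRF1, a factor known for respiratory chain genes, was found in 7 (9.09%, against 1.07%), and AAGATGGCG, a YY1 motif, in 8 (10.4%, against 1.64%). CAGCTG was found in 6 (7.79%, against 18.3%), and the MEF2 core motif in 0 (against 0.181%). These are matches of letters and say nothing of binding in these samples. Cox6a1 held both the NRF1 and the ETS motif (chr5:115348909-115349208, minus strand, the same capitals).
Cox6a1: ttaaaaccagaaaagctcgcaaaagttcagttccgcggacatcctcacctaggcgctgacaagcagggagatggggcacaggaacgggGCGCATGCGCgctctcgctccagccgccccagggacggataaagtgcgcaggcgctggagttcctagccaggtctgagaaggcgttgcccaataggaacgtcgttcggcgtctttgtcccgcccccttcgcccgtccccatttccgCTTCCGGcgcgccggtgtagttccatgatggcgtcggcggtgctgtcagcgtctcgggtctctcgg

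Of the genes that work beside the chain, 0 were called in each list, beside 0.848% of all genes tested. These lists, like the members, were drawn up with earlier results of these data known. Cytochrome c (Cycs), which carries electrons from complex III to IV, had 206 and 596 CPM in cKO against 304 and 137 in control (0.83 ± 0.57), and Cyc1, the cytochrome c1 subunit of complex III, had 64.7 and 67.4 against 32.02 and 31.9 (1.03 ± 0.75) on 6 to 16 counts. Of 7 carriers and porins, 5 were tested with a median log2 fold change of 0.52, 4 of them positive. Slc25a3, the phosphate carrier that feeds the ATP synthase, had 497 and 348 CPM in cKO against 278 and 198 in control (0.86 ± 0.44, adjusted p = 0.667), with both cKO libraries higher. Vdac1, the porin of the outer membrane, went the other way, with 129 and 135 CPM against 171 and 188 (-0.45 ± 0.46).

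Assembly factors outside the name rule had a median of 0.09 over 17 tested of 51 listed, 9 positive and 8 negative. Higd1a, a hypoxia-induced factor of complexes III and IV, had the highest level among them. It had 906 and 1000.2 CPM in cKO against 576 and 460 in control, so the groups did not overlap (0.88 ± 0.41, adjusted p = 0.599). Uqcc2, an assembly factor of complex III, had 627 and 1045 against 699 and 319 (0.71 ± 0.49). Of the genes listed for mitochondrial genome transcription, replication and biogenesis, 3 of 19 were tested, with a median of -0.45 and 2 negative. As a share of counts the 19 took 0.0422% and 0.0538% in the knockouts against 0.0649% and 0.0540% in control. The ratio was 0.808 (exact permutation p = 0.333, the smallest possible), and the groups overlapped once the pseudogenes were left out of the total. Slirp, which stabilises mitochondrial messenger RNA, had 214 and 393 CPM in cKO against 246 and 134 in control (0.66 ± 0.50), and Twnk, the helicase that replicates mitochondrial DNA, had 48.5 and 89.9 against 112 and 92.6 (-0.65 ± 0.61).

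Mitochondrial ribosomal protein genes, whose products translate the mitochondrial messages, had a median near the 0.01 of all genes. Of 78 listed, 43 were tested, their median log2 fold change was 0.04, and 24 of them were positive and 19 negative. Mrps14 had 429 and 607 CPM in cKO against 582 and 450 in control (-0.01 ± 0.43), and Mrpl42 had 582 and 450 against 550 and 297 (0.31 ± 0.45). The tricarboxylic acid cycle, which supplies NADH and succinate, had 5 of 14 genes tested and a median of 0.18. Its Cs (citrate synthase) had 222 and 202 CPM in cKO against 187 and 105 in control (0.57 ± 0.47), and its Ogdh had 332 and 292 against 358 and 364 (-0.20 ± 0.42). Cytosolic ribosomal protein genes had a median of 0.18 over 86 tested, with 59 positive, near the value of 0.23 of the respiratory chain genes.

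The remaining members were counted too low to compare. Of the 19 nuclear genes that did not pass the filter, 4 had no count and 15 had at most 16 counts in a library. Among those 15, 6 had both cKO libraries below both controls, which were Cox6a2, Cox7a1, Cox8b, Ndufaf1, Ndufaf4 and Ndufaf7, and 2 (Ndufs1 and Ndufa4) had both above. Of all 12936 genes with a count that did not pass the filter, 13.5% were apart and lower and 9.97% apart and higher. Near copies limit other values. Of the 97 nuclear genes, 42 had another transcript of at least 95% identity over at least 150 bases, 6 overlapped exons of a gene on the same strand and 32 on the opposite strand. The 30 tested genes with neither a copy nor an overlap had a median of 0.25, 21 positive and 9 negative, beside 0.23 over all 78.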

How the data were processed

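RNA from the epidermis of 4 mouse skin samples was measured with a 3′ transcriptome kit. The counts are raw whole numbers in 1 deposited table, with exon positions and length per the file headers, not normalised and with 0 per-sample columns unused. The submitters' processing notes name Trim Galore 0.6.7, Trimmomatic 0.39, cutadapt 3.7, STAR 2.7.10a, featureCounts 2.0.1 and GRCm39. Their settings, including strand, reads with several alignments and molecular identifiers, are not given in the sources used here. How reads that fit both a pseudogene and mitochondrial DNA were assigned is therefore unknown.

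Titles gave each sample its genotype. Counts were tested with edgeR 4.0.16 (R 4.3.3): filterByExpr (minimum count 10, minimum total 15) kept 4243 genes with 87.6% of all counts and 98.8% of those of the nuclear members, TMM factors ran from 0.833 to 1.12, and genotype was the only term of glmQLFit and glmQLFTest. P-values were adjusted by Benjamini-Hochberg over all tested genes, with a threshold of 0.05. Standard errors came from each log2 fold change and the F statistic of its test. The biological coefficient of variation was 35.5%. In 3 simulated draws a log2 change of 4 was planted in 200 of the 4243 genes, of which the fit recovered 95.2% to 96.1%, with up to 5.42% false calls. Recovery of smaller changes was not counted. Shares carry 95% Wilson intervals and exact permutation tests over the 4 libraries. For a gene at 0, 3 counts were the floor.

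Members and lists were chosen with earlier results of these data known. Named are the 8 pseudogenes, the Sdh genes, the 3 tested genes of highest mean CPM in complexes I, III, IV and V, the 5 largest and 5 smallest log2 fold changes, the tissue isoforms, any called member, and of each related list its called genes and its 2 tested genes of highest mean CPM, Stim1 and Stim2. Cox6b1, Cox5a, Cox5b, Cox5b-ps and Ndufaf8 fall outside this rule, and remaining members are counted only. A gene that the rule names is not reported here. Copies were searched with blastn 2.17.0 among GENCODE M21 transcripts (GRCm38), whose coordinates were not mixed with those of the table. Promoters came from RefSeq. Alternatives were DESeq2 size factors, library totals, library sizes without the pseudogenes, other filters, DESeq2 1.42.0, limma-voom (limma 3.58.1), a replicate block, other denominators and each library left out. A block with crossed numbers was added after seeing the data. Stim2 had too few counts for the filter.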

Additional observations from a re-analysis of the deposited data

How the results depend on the processing

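With 2 libraries per group and 118858 to 322426 counts, depth limits single genes most. Over all tested genes 28 were called higher and 8 lower in cKO. Without a count filter these were 49 and 26, under a filter on the mean (10 CPM) 40 and 15, and in limma-voom 12 and 3. With the replicate number as a block they were 16 and 1. The numbers pair no samples in the labels, and deviations of same-numbered libraries had a correlation of -0.19, so a crossed block was added after seeing the data, with 90 and 57 calls. With each library left out, the lone library being assumed to vary like the other group, the counts ran from 34 to 59 higher and from 8 to 34 lower. In each of these fits 0 nuclear respiratory chain genes were called. The 8 pseudogenes kept positive log2 fold changes in every fit that held them. Over all results and alternatives, 591 values stayed within the spread or on their side of the threshold and 41 moved, and the cause was not tested.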
